A study of Homo sapiens with 4 samples.

Results

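The genes described here are those of the amino acid response that the transcription factor ATF4 drives, together with the cytosolic aminoacyl-tRNA synthetases. They were taken as 42 named genes, each represented by the probe set of highest mean log2 signal over the arrays among those that the platform annotation ties to that gene alone. This gave 41 measured genes of 19775 with such a probe set, and all 41 passed the filter on dim signals, as 11938 genes of the series did. The methionyl synthetase MARS1 has no value, because each of its 3 probe sets carries a microRNA symbol as well.

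The measurements are from Z138, an established line of human mantle cell lymphoma cells, a cancer of B cells. All 4 samples were stable lentiviral lines carrying a short hairpin RNA, a small RNA that lowers the transcript it matches. Scrambled hairpins were carried by shControl.1 and shControl.2, and hairpins against the transcription factor SOX11 by shSOX11.1 and shSOX11.3. Total RNA of each was hybridised to 1 Affymetrix U133 Plus 2.0 array, so each group had 2 arrays. Every array was a different hairpin construct, the series text calls the cells stable clones, and untransduced cells do not enter the comparison. Nothing in the labels says that cultures were repeated, so p-values reflect no more than the scatter among these samples, part of which may be technical. Treatments are not named in the labels, so the values are those of cells in culture with a hairpin and no stated stress.

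ATF4 is the effector of the integrated stress response. Kinases that sense unloaded tRNA, misfolded protein, double-stranded RNA or haem shortage phosphorylate the translation factor eIF2, general protein synthesis slows, and ATF4 protein is made because upstream reading frames in its messenger release it under these conditions. ATF4 then binds C/EBP-ATF response elements, often with a C/EBP partner, and raises genes that make, import and load amino acids, followed by feedback inhibitors and regulators linked to cell death. Since ATF4 is governed largely in translation, its messenger level is a poor gauge of its activity, and its targets are commonly read in its place.

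The elements that ATF4 binds are shown first, because they are what ties many of these genes together. RefSeq promoter windows (GRCh38.p14, from 250 bases before to 50 after a transcription start) were matched for 35 of the 42 genes, in 55 windows. The 8-letter core TGATGNAA, searched on both strands, was present for 15 of these 35 genes (42.9%) and for 4.46% of the 27305 genes in the table. Counted by window, it was in 15 of the 55 (27.3%) and in 3.62% of the 35116 in the table. The genes were listed in part as known ATF4 targets, so these shares describe the list and not the arrays. Below are 5 promoters with the core in capitals, each read 5′ to 3′ on the gene's own strand from 250 bases before to 30 after the start. They span chr15:40953221-40953500 (+ strand) for CHAC1, chr7:97872379-97872658 (- strand) for ASNS, chr13:29595659-29595938 (- strand) for SLC7A1, chr19:46784785-46785064 (- strand) for SLC1A5 and chr11:3057394-3057673 (- strand) for CARS1. ASNS, SLC1A5 and CARS1 also have windows at other starts, which are not printed. CHAC1, SLC7A1, SLC1A5 and CARS1 had both shSOX11 arrays below both controls, and ASNS did not. These 5 were picked for holding the core or for the smallest p in their role, so they give no share. Of all 14 measured genes with the core, 6 had both shSOX11 arrays below both controls, 1 had both above and 7 had neither. Over all genes tested, 24.9% stood below and 16.2% above.
CHAC1: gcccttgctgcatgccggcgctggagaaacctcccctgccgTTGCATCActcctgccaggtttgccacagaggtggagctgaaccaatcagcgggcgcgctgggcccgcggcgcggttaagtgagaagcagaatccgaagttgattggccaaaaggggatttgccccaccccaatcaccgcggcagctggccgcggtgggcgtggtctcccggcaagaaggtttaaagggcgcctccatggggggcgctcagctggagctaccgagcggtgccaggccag
ASNS: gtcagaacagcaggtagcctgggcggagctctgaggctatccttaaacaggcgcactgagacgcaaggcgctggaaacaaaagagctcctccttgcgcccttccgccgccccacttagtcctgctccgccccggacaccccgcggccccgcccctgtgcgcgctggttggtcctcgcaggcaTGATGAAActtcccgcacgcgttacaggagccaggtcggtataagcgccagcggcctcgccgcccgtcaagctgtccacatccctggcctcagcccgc
SLC7A1: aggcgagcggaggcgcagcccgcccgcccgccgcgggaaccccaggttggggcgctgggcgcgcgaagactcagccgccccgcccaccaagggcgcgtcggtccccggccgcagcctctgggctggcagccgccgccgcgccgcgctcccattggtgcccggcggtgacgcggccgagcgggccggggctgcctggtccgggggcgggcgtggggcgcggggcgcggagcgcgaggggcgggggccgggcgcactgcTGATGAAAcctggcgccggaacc
SLC1A5: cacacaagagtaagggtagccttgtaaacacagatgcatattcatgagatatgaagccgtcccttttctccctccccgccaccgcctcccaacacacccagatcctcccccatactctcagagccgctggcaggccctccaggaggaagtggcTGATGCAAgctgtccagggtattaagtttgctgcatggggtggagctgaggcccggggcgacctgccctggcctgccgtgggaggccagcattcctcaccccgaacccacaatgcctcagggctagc
CARS1: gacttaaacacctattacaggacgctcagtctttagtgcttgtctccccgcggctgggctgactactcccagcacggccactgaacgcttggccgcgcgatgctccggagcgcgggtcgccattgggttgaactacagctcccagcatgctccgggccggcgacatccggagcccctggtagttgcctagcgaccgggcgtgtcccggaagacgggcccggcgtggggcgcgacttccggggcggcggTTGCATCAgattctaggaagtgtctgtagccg
The core starts at base -209 from the transcription start in CHAC1, at -68 in ASNS, at -97 in SLC1A5, at -2 in CARS1 and at 8 in SLC7A1. In CHAC1 and CARS1 it lies on the opposite strand and so reads TTGCATCA. The windows of TRIB3 and DDIT3, both textbook ATF4 targets, do not hold these letters, which says nothing about elements outside the windows.

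The hairpin target was read first. SOX11 signal was 797 on shControl.1, 787 on shControl.2, 335 on shSOX11.1 and 339 on shSOX11.3, so the groups did not overlap (log2 change -1.23, SE 0.15, limma adjusted p = 0.131 over 11938 genes). The 6 B-cell and mantle cell lymphoma markers measured of 7 listed were above the signal threshold of 24.83 (the median over the table) on 2 or more arrays, and summed to 21200 and 21161 in the shControl pair and to 18075 and 18368 in the shSOX11 pair. MS4A1 was at 8358 and 7778 against 6823 and 7426, PAX5 at 1845 and 1666 against 646 and 1450 and CD79B at 916 and 992 against 535 and 658, all lower without overlap, as CCND1 was too, at 9760 and 10317 against 9753 and 8610, with shControl.1 and shSOX11.1 nearly equal. CD22, at a low signal, was also lower without overlap (48.2 and 67.0 against 39.8 and 4.94), and CD79A overlapped (272 and 341 against 279 and 220). Of other cell types, the 8 T and NK cell markers summed to 278 and 301 in the shControl pair and to 249 and 270.5 in the shSOX11 pair, mostly through CD3G, with CD8A and GNLY under the threshold everywhere. The 6 myeloid markers summed to 92.2 and 83.1 against 126 and 115, with CD14 and LYZ under the threshold everywhere and CSF1R and CSF3R above it in the shSOX11 pair only, and the 2 erythroid markers measured summed to 87.9 and 49.1 against 68.5 and 55.8. Of the 7 epithelial and stromal markers, which summed to 8436 and 7944 against 8997 and 7732 mostly through VIM and COL1A1, EPCAM was under the threshold on every array. KRT8 and KRT18 were above it on every array and COL1A2 on shControl.1 only. PECAM1 was higher in the shSOX11 pair without overlap, at 212 and 280 against 483 and 387. The beta-actin 3′/5′ signal ratio, which reflects RNA length and labelling, stood at 11.6 for shControl.1 and shControl.2, at 7.29 for shSOX11.1 and at 5.31 for shSOX11.3. The same ratio for GAPDH differed little, at 0.98 for shControl.1, 1.06 for shControl.2, 1.01 for shSOX11.1 and 1.03 for shSOX11.3. The part of these markers and of these ratios in the differences below was not tested.

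None of the 41 genes passed the test between the groups. In limma 0 of 41 lay under an adjusted p of 0.05, and over all genes the count was also 0 (0% of 11938). At an unadjusted p under 0.05 limma gave 3 genes lower in the shSOX11 pair, TRIB3, DDIT3 and PYCR1 (7.32% of the 41, against 4.98% of all genes), and 0 higher (against 3.4%), where both directions together held 8.38% of all genes. DDIT3 was not among them with median centring or without the intensity trend. No gene differed by 1.5-fold or more whichever pair of arrays was taken across the groups, where 1.93% of all genes were lower and 0.762% higher by that measure. The adjusted limma p of the 41 genes ran from 0.388 to 0.991. With 2 arrays a group, the smallest two-sided p an exact permutation test allows is 0.333.

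The differences were small and lay mostly on the lower side. The mean log2 change (shSOX11 minus shControl) was below 0 for 27 of the 41 genes, or 65.9%, and 58.1% of all genes tested lay below 0 too. Their median was -0.14 and that of all genes -0.06. Both shSOX11 arrays stood below both shControl arrays for 18 genes (43.9%, against 24.9% of all genes) and above both for 3 (7.32%, against 16.2%), and the 2 groups overlapped for the other 20. This split depended on the scaling of the arrays: with each array centred on its median, which shifts every difference up, 11 genes were lower without overlap and 8 higher, against 17.6% and 23.3% of all genes. It depended on the choice of probe set too: with a gene's probe sets averaged, 12 were lower and 4 higher, against 23.5% and 18.3%. In some of the 18 genes, among them WARS1, CARS1, HARS1, PSAT1, MTHFD2 and ATF3, the gap between the groups was smaller than the distance between the controls. The 2 arrays of a group lay closer for the 41 genes than for genes at large. The median absolute log2 difference came to 0.14 within the shControl pair and 0.17 within the shSOX11 pair, where all genes gave 0.18 and 0.30. Genes at large were not matched to the 41 in signal level, and dim MAS5 values are noisy. The part of signal level in this closeness was not tested.

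**Figure D1:**
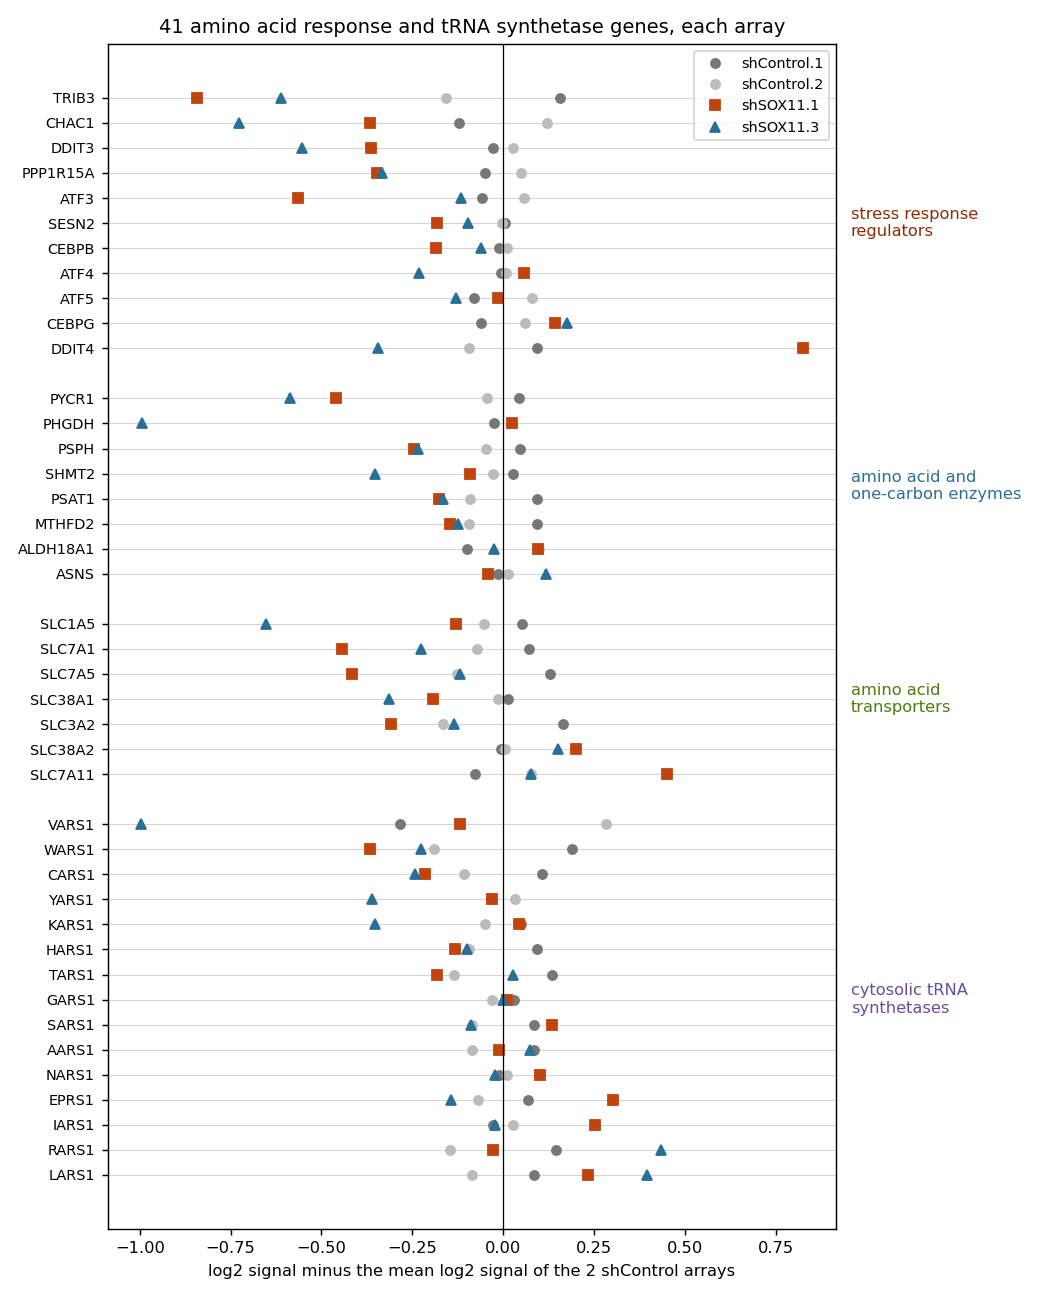
Each row is 1 of the 41 genes, grouped by role, and each point is 1 array, placed by its log2 signal minus the mean log2 signal of the 2 shControl arrays (grey circles for shControl, squares for shSOX11.1, triangles for shSOX11.3). TRIB3, CHAC1, DDIT3 and PYCR1 have both shSOX11 points to the left of both controls, while PHGDH, VARS1 and DDIT4 have 1 shSOX11 array far from the other.

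By role, the regulators, enzymes and transporters had medians on the lower side and the synthetases did not. The median log2 change was -0.14 for the 11 stress response regulators, -0.20 for the 8 amino acid and one-carbon enzymes, -0.25 for the 7 transporters and 0.01 for the 15 synthetases measured, beside -0.06 for all genes. Arrays that did not overlap and were lower were found for 7 of 11 regulators, 5 of 8 enzymes, 3 of 7 transporters and 3 of 15 synthetases, beside 24.9% of all genes, and arrays that did not overlap and were higher for 1, 0, 1 and 1, beside 16.2%. The medians on shSOX11.1 and shSOX11.3 against the control mean were -0.18 and -0.23 for the regulators, -0.12 and -0.20 for the enzymes, -0.19 and -0.14 for the transporters, and -0.01 and -0.09 for the synthetases. Over all genes these 2 medians were -0.0043 and -0.10. With probe sets averaged, the medians were -0.19 for the regulators, -0.034 for the enzymes, -0.22 for the transporters and 0.01 for the synthetases. That of all genes was then -0.042, so at that setting the enzymes were no lower than genes at large. The differences between roles were not tested.

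**Figure D2:**
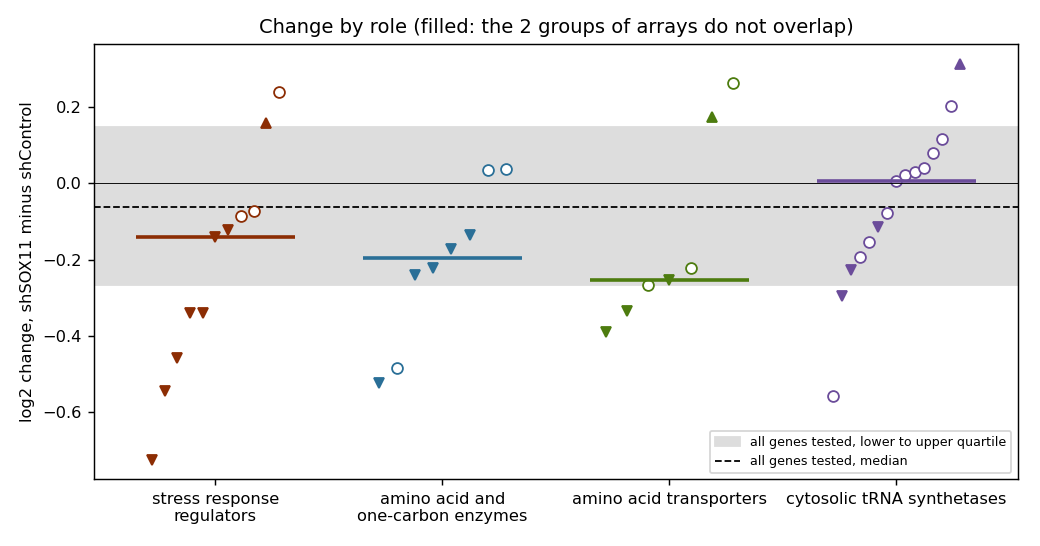
Each symbol is 1 gene, placed by its log2 change (shSOX11 minus shControl) within its role. Filled triangles mark genes whose 2 groups of arrays do not overlap, open circles genes whose groups overlap, coloured bars the medians by role (-0.14, -0.20, -0.25 and 0.01), the dashed line the median of all genes (-0.06) and the grey band their lower to upper quartile (-0.27 to 0.15).

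Among the regulators, ATF4 itself differed little. Its signal was 6787 on shControl.1, 6853 on shControl.2, 7103 on shSOX11.1 and 5807 on shSOX11.3, with 1 shSOX11 array above and 1 below the controls (log2 change -0.09, SE 0.15, limma adjusted p = 0.872), and quantile normalization turned the sign to 0.03. TRIB3, a pseudokinase that binds ATF4 and CHOP and damps their activity, showed the smallest p of the 41 genes. It was at 807 on shControl.1, 649 on shControl.2, 404 on shSOX11.1 and 474 on shSOX11.3. Both shSOX11 arrays were thus below both controls, and the mean was 1.65-fold lower (log2 change -0.73, SE 0.18, limma adjusted p = 0.388). A second TRIB3 probe set lay at 34.3 and 43.6 against 35.6 and 36.4 and overlapped.

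DDIT3 encodes CHOP, a transcription factor made when the stress response is prolonged. It was at 375 on shControl.1, 390 on shControl.2, 298 on shSOX11.1 and 261 on shSOX11.3, without overlap and 1.37-fold lower (log2 change -0.46, SE 0.17, limma adjusted p = 0.522). CHAC1, an enzyme that breaks down glutathione and is an ATF4 and CHOP target, was at 91.5 on shControl.1, 108 on shControl.2, 77.3 on shSOX11.1 and 60.2 on shSOX11.3. Here too the groups did not overlap, with a log2 change of -0.55 (SE 0.27, limma adjusted p = 0.598) at a fairly low signal. ATF3, a stress-inducible repressor, was at 147 on shControl.1, 159 on shControl.2, 103 on shSOX11.1 and 141 on shSOX11.3. It too was lower on both (log2 change -0.34, SE 0.23, limma adjusted p = 0.674), and the other ATF3 probe set that passed the filter went the other way, at 0.19.

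The feedback arm and the C/EBP partners showed the same small scale. PPP1R15A, the GADD34 subunit that brings a phosphatase to eIF2, was at 67.6 and 72.4 in the shControl pair and 55.0 and 55.5 in the shSOX11 pair (log2 change -0.34, SE 0.28). SESN2, a leucine sensor that restrains mTORC1, was at 144 and 143 against 126 and 134, and CEBPB at 674 and 684 against 598 and 651, with log2 changes of -0.14 and -0.12. CEBPG, a C/EBP protein that pairs with ATF4, was at 663 and 721 against 763 and 781, higher without overlap (0.16, SE 0.15), while its other probe set was lower without overlap, at 554 and 535 against 455 and 471. ATF5, a relative of ATF4 under like translational control, was at 3627 and 4047 against 3795 and 3504, with overlap. DDIT4, the mTORC1 inhibitor REDD1, was the regulator on which the shSOX11 arrays stood farthest apart, at 732 on shControl.1, 643 on shControl.2, 1216 on shSOX11.1 and 541 on shSOX11.3. A mean log2 change of 0.24 (SE 0.32, limma adjusted p = 0.837) therefore describes neither of them.

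**Figure D3:**
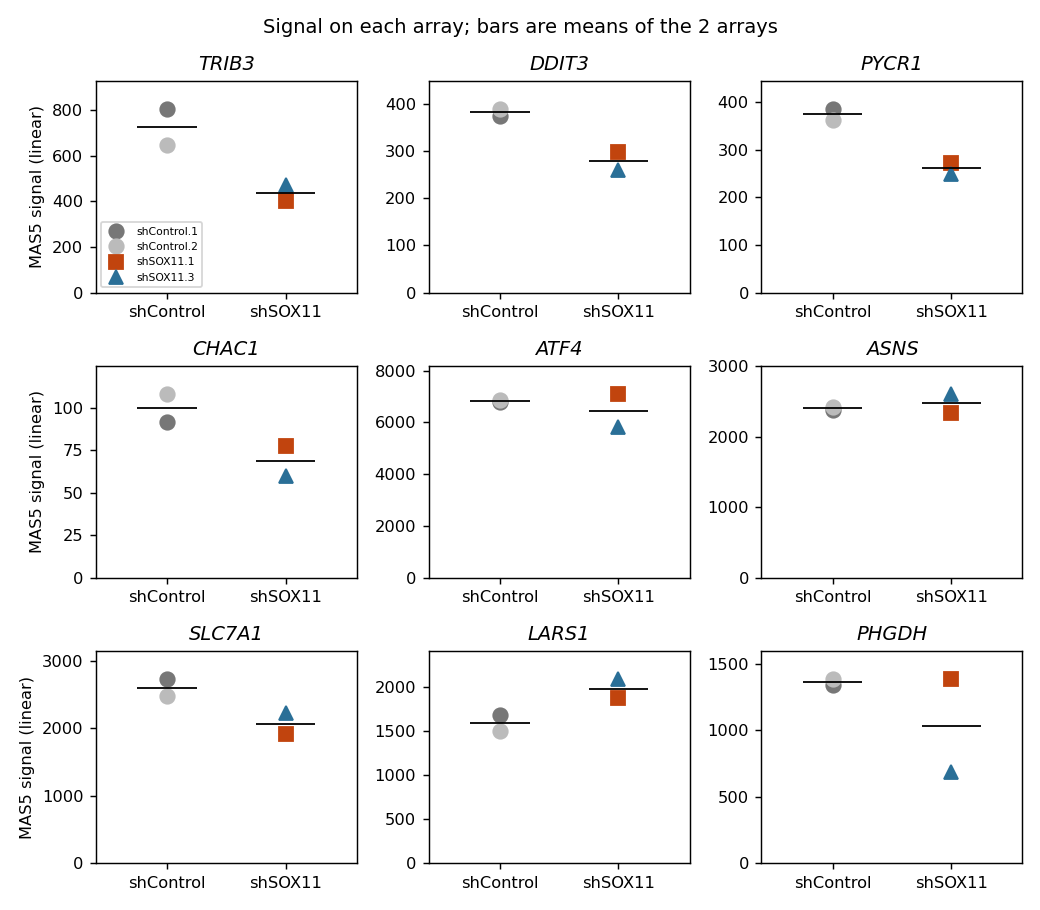
MAS5 signal on a linear axis from 0 for TRIB3, DDIT3, PYCR1, CHAC1, ATF4, ASNS, SLC7A1, LARS1 and PHGDH on each array, with bars at the mean of the 2 arrays of a group. In TRIB3, DDIT3, PYCR1, CHAC1 and SLC7A1 both shSOX11 arrays are below both controls, in LARS1 both are above, and in PHGDH only shSOX11.3 is apart, at 685.

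The enzymes that build amino acids from central metabolites included PYCR1, which makes proline in mitochondria. PYCR1 was at 386 on shControl.1, 363 on shControl.2, 272 on shSOX11.1 and 249 on shSOX11.3. These groups did not overlap and the mean was 1.44-fold lower (log2 change -0.52, SE 0.17, limma adjusted p = 0.471). ALDH18A1, which supplies the precursor that PYCR1 reduces, overlapped between the groups, at 791 and 908 against 907 and 832 (log2 change 0.04, SE 0.15). ASNS, the asparagine synthetase that is a classic readout of amino acid shortage, also overlapped. It was at 2383 on shControl.1, 2429 on shControl.2, 2337 on shSOX11.1 and 2612 on shSOX11.3 (0.04, SE 0.14, limma adjusted p = 0.946).

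The serine route runs through PHGDH, PSAT1 and PSPH, and serine then feeds the mitochondrial one-carbon enzymes SHMT2 and MTHFD2. PHGDH, the first of these, was at 1341 on shControl.1, 1387 on shControl.2, 1387 on shSOX11.1 and 685 on shSOX11.3, so its log2 change of -0.49 (SE 0.29, limma adjusted p = 0.649) came from shSOX11.3 and was 0.02 without that array. PSAT1 was at 1777 and 1564 in the shControl pair and 1475 and 1486 in the shSOX11 pair (-0.17, SE 0.14). PSPH was at 1629 and 1529 against 1331 and 1342 (-0.24, SE 0.14, limma adjusted p = 0.649). Both were thus lower without overlap, by 1.13-fold and 1.18-fold. SHMT2 was at 6813 and 6555 against 6273 and 5237 (-0.22, SE 0.14), and MTHFD2 at 5635 and 4948 against 4769 and 4845 (-0.14, SE 0.14). In PSAT1, PSPH, SHMT2 and MTHFD2 at least 1 dimmer probe set past the filter lay above 0, up to 0.49 in PSAT1.

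Of the transporters, SLC7A1, the carrier of arginine and lysine, showed the smallest p. It was at 2734 on shControl.1, 2473 on shControl.2, 1910 on shSOX11.1 and 2223 on shSOX11.3, lower without overlap (log2 change -0.34, SE 0.15, limma adjusted p = 0.587). Of its other probe sets past the filter, 2 lay above 0, at 0.11 and 0.34, and the average over its probe sets was -0.054. SLC7A5 and SLC3A2 are the light and heavy chains of LAT1, which exchanges glutamine for leucine and other large neutral amino acids. SLC7A5 was at 2493 on shControl.1, 2088 on shControl.2, 1711 on shSOX11.1 and 2101 on shSOX11.3, and SLC3A2 at 737 and 587 against 532 and 599, and in both the groups overlapped (log2 changes -0.27 and -0.22). SLC7A11, the cystine importer that pairs with the same heavy chain, was at 249 on shControl.1, 277 on shControl.2, 359 on shSOX11.1 and 277 on shSOX11.3 (0.26, SE 0.19, limma adjusted p = 0.697), and the mean of its probe sets turned the sign to -0.27.

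Glutamine and small neutral amino acids enter through SLC1A5, SLC38A1 and SLC38A2. SLC1A5 was at 146 on shControl.1, 136 on shControl.2, 128 on shSOX11.1 and 89.4 on shSOX11.3, lower without overlap (log2 change -0.39, SE 0.24, limma adjusted p = 0.657). SLC38A1 was at 5844 on shControl.1, 5729 on shControl.2, 5062 on shSOX11.1 and 4659 on shSOX11.3 (-0.25, SE 0.13, limma adjusted p = 0.618). That also separated the groups, yet 1 of its dimmer probe sets lay at 0.69 and the mean of its probe sets at 0.14. SLC38A2, whose messenger is induced when amino acids run short, went the other way on each of its 3 probe sets without overlap. At the brightest it was at 5166 and 5208 in the shControl pair and 5957 and 5756 in the shSOX11 pair (0.17, SE 0.13, limma adjusted p = 0.698), and the others lay at 0.46 and 0.47. The brightest and 1 of the others end in _x_at, by which Affymetrix flags probes that may cross-hybridize.

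Aminoacyl-tRNA synthetases load each tRNA with its amino acid, and many of their genes are ATF4 targets. Of the 15 measured, 8 lay above 0 and 7 below, between -0.56 and 0.32, and the groups overlapped in 11, as in 7040 of all 11938 genes. LARS1, the leucine enzyme, which also signals leucine to mTORC1, had the smallest p. It was at 1683 on shControl.1, 1496 on shControl.2, 1867 on shSOX11.1 and 2088 on shSOX11.3, higher without overlap (log2 change 0.32, SE 0.15, limma adjusted p = 0.597), and its 3 other probe sets lay between 0.06 and 0.21. It was the only synthetase higher without overlap. WARS1, the tryptophan enzyme and an interferon-inducible gene, was at 1322 on shControl.1, 1016 on shControl.2, 898 on shSOX11.1 and 991 on shSOX11.3, lower without overlap by a gap smaller than the distance between the controls (-0.30, SE 0.17, limma adjusted p = 0.649). CARS1, the cysteine enzyme, was at 2493 on shControl.1, 2148 on shControl.2, 1995 on shSOX11.1 and 1958 on shSOX11.3 (-0.23, SE 0.14, limma adjusted p = 0.661). HARS1, the histidine enzyme, was at 1018 and 893 against 870 and 891 (-0.12, SE 0.15). In CARS1 and HARS1 too the gap was smaller than the distance between the controls.

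VARS1, the valine enzyme, had the lowest mean log2 change of the synthetases, -0.56 (SE 0.30, limma adjusted p = 0.622), with overlap. It was at 489 on shControl.1, 723 on shControl.2, 547 on shSOX11.1 and 298 on shSOX11.3, so the control arrays differed from each other as well. The isoleucine, glutamate and proline, asparagine, lysine and tyrosine enzymes were each higher on shSOX11.1 than on shSOX11.3. Against the control mean, the log2 difference was 0.25 and -0.02 for IARS1, 0.30 and -0.14 for EPRS1, 0.10 and -0.02 for NARS1, 0.04 and -0.35 for KARS1 and -0.03 and -0.36 for YARS1. In EPRS1 both dimmer probe sets were higher on both shSOX11 arrays, at 0.49 and 0.75, and with its probe sets averaged EPRS1 was higher at an unadjusted limma p under 0.05. RARS1, the arginine enzyme, stood at 0.44 on shSOX11.3 and -0.03 on shSOX11.1. The alanine, glycine, serine and threonine enzymes AARS1, GARS1, SARS1 and TARS1 had mean log2 changes of 0.03, 0.01, 0.02 and -0.08, all with overlap.

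Further probe sets of the same genes were set beside the brightest. The 41 genes had 83 probe sets of 1 symbol, of which 77 passed the filter, and 22 genes had 2 or more that passed. In 12 of these 22 the probe sets differed in direction, in 5 all were lower and in 5 all higher. Those lower throughout were TRIB3, SESN2, PPP1R15A, WARS1 and YARS1, and those higher throughout ALDH18A1, SLC38A2, EPRS1, LARS1 and SARS1. These names were taken after the values were seen.

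**Figure D4:**
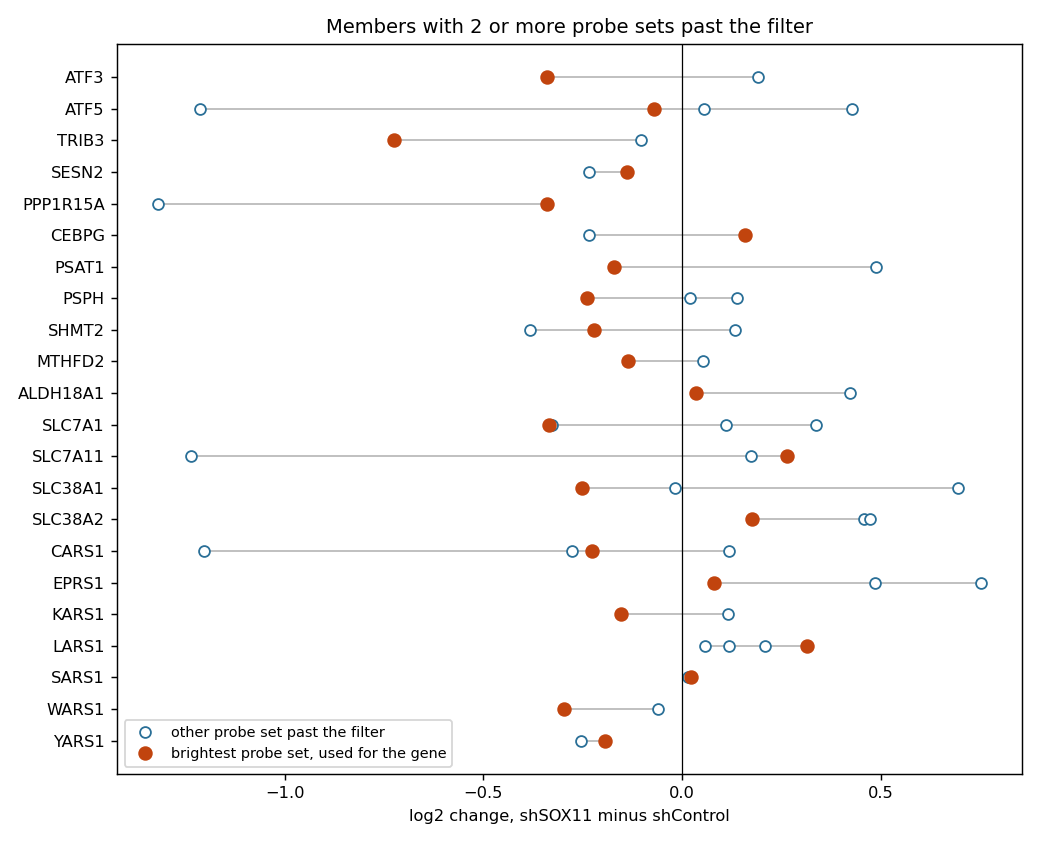
Each row is 1 of the 22 genes with 2 or more probe sets past the filter, and each circle is 1 probe set, placed by its log2 change (shSOX11 minus shControl). Filled circles are the probe sets that stand for the gene. Lines that cross 0 mark the 12 genes whose probe sets differ in direction, among them ATF5, SLC7A11 and CARS1, each with a dim probe set below -1.

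Genes with and without the core letters in a promoter window had similar medians. Those without include TRIB3 and DDIT3, so this does not part ATF4 targets from other genes. The 14 measured genes with TGATGNAA in a promoter window had a median log2 change of -0.15, with 8 lower and 6 higher, and the 20 whose windows lacked it had -0.13, with 14 lower and 6 higher. Groups did not overlap and were lower in 6 of the 14 and in 9 of the 20, and higher in 1 of each, beside 24.9% and 16.2% of all genes. The E-box CACGTG, which MYC and related proteins bind, was found for 5 of 35 genes (14.3%, against 8.77% of all), namely ATF4, ALDH18A1, SLC7A5, SLC1A5 and IARS1. The letters AACAAT, which resemble the core that SOX proteins bind, were found for 4, ATF5, ASNS, CARS1 and TARS1 (11.4%, against 12.2% of all genes). Among these 4 only CARS1 was separated between the groups. A gene was counted if any of its windows held the letters. The E-box of SLC1A5 and the AACAAT of ASNS, CARS1 and TARS1 lie in other windows than their TGATGNAA. All motifs were searched on both strands, and these letter matches are not evidence of binding.

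Neighbouring parts of the pathway were read from lists of other genes. Over all genes tested, 7040 of 11938 overlapped between the groups and 8.38% lay under an unadjusted limma p of 0.05. Of the 8 genes for eIF2 kinases, eIF2 subunits and GCN1, all overlapped and 0 lay under that p. The smallest p there belonged to EIF2AK1, the haem-regulated kinase, at 2690 and 2320 against 2337 on shSOX11.1 and 1372 on shSOX11.3, to EIF2AK3, the endoplasmic reticulum kinase PERK, at 744 and 664 against 739 and 1189, and to EIF2S2, at 5762 and 5348 against 5648 and 4093. In all 3 shSOX11.3 stood apart from the other 3 arrays.

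Further targets of ATF4 had medians of opposite sign on the shSOX11 arrays, with 0.15 for shSOX11.1 and -0.21 for shSOX11.3 relative to the mean of the controls. The shSOX11.3 median lay between VEGFA at -0.41 and CBS at -0.0068, so it hangs on few genes. Among those counted is SLC6A9, whose signals were near or under the threshold. They were 4.54 and 26.7 in the shControl pair, 38.7 on shSOX11.1 and 3.02 on shSOX11.3. Of 8 measured out of 14 listed, 1 was lower (against 4.98% of all genes) and 0 higher (against 3.4%) at an unadjusted limma p under 0.05, with a median of -0.02. That gene was EIF4EBP1, which encodes a repressor of cap-dependent translation and lay at 896 and 813 in the shControl pair and 491 and 421 in the shSOX11 pair (log2 change -0.91, SE 0.16, limma adjusted p = 0.283). XPOT, the tRNA export receptor, was at 3592 and 3887 against 4143 and 4715 (0.24), and CTH, which makes cysteine, at 79.5 and 61.9 against 78.5 and 89.9 (0.26).

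Synthetase genes outside the list split in direction. Of the other cytosolic ones 3 of 7 were measured: FARSA, a phenylalanine enzyme subunit, was lower without overlap (421 and 446 against 353 and 323, log2 change -0.36), AIMP1, a scaffold of the multisynthetase complex, was higher without overlap (1409 and 1329 against 1578 and 1509, 0.17), and FARSB, the partner subunit of FARSA, overlapped (1265 and 1086 against 1207 and 1312, 0.10). Of the mitochondrial synthetases 15 of 17 were measured, 7 above 0 and 8 below, with 1 under an unadjusted limma p of 0.05 and higher (against 3.4% of all genes). This was IARS2, at 1807 and 1665 against 2351 and 2160 (0.38, SE 0.14, limma adjusted p = 0.536). MARS2 followed, at 117 and 154 against 172 and 214 (0.51), and then YARS2, at 717 and 344 against 206 and 381 (-0.83), where the controls differed about as much as the groups.

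The other arms of the unfolded protein response, which run through XBP1 and ATF6 rather than eIF2, had medians of opposite sign in the shSOX11 pair. Of 14 genes 9 lay above 0 and 5 below, with a median of 0.16. Set against the mean of the controls, shSOX11.1 gave a median of -0.05 and shSOX11.3 one of 0.32. At an unadjusted limma p under 0.05 there were 3 higher (against 3.4% of all genes) and 1 lower (against 4.98%), 0 of them past the adjusted threshold. DNAJB9, an endoplasmic reticulum co-chaperone, was at 682 and 638 in the shControl pair and 982 and 1181 in the shSOX11 pair, and SEL1L, of the degradation machinery, at 854 and 738 against 1490 and 1191 (log2 changes 0.71 and 0.75). HSP90B1, an endoplasmic reticulum chaperone, was at 1093 and 1306 against 2179 and 2529 (0.97) on a probe set ending in _x_at, as above. Its other probe sets were higher by less: 0.42 on a dimmer one, and 0.46 and 0.23 on brighter ones that carry a microRNA symbol as well. CRELD2, an endoplasmic reticulum stress-inducible gene, was the 1 gene lower at that p, at 693 and 649 against 570.2 and 390 without overlap (-0.51, SE 0.20). The 3 regulators of the eIF2 arm with the smallest p, TRIB3, DDIT3 and CHAC1, were lower on these same arrays. They were picked by p, and of all 11 regulators 9 lay below 0 and 2 above, with a median of -0.14. HSPA5, the chaperone BiP, was at 1849 and 1786 against 1744 on shSOX11.1 and 4115 on shSOX11.3, so only shSOX11.3 stood apart, while its other probe set was lower without overlap, at 190 and 198 against 121 and 139. Whether the arms differ was not tested.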

How the data were processed

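Each of 4 Z138 samples, grouped by title, gave 1 Affymetrix U133 Plus 2.0 array in 1 colour. Values are the authors' linear MAS5 signal intensities, from Affymetrix Expression Console per the submitters' processing notes, without versions or a scaling target. The 2% trimmed mean was 150.02 on every array. MAS5 subtracts mismatch signals, so dim values are noisy.

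Signals were taken to log2, with neither a pseudocount nor further normalization. A probe set was kept if it exceeded 24.83, the median over the table, on 2 or more arrays, and its brightest kept probe set stood for a gene. limma 3.58.1 (R 4.3.3; lmFit, then eBayes with an intensity trend, two-sided) compared the groups, with Benjamini-Hochberg adjustment over 11938 genes at 0.05. The code of the fit was checked on simulated data with planted changes. Both groups had the same scatter there, so that check does not bear on the scatter of these arrays. Of 54675 probe sets 41091 had 1 symbol in the platform annotation. Promoters are RefSeq's (GRCh38.p14), searched by exact letters.

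Genes, lists and roles were chosen with earlier results of these data known. The naming rule gave all 4 signals for ATF4, DDIT3, TRIB3, CHAC1, ASNS, SLC7A11, SLC7A5, WARS1, for those of the 41 genes under an unadjusted p of 0.05 or 1.5-fold apart throughout, and for up to 4 genes per role and 3 per further list with the smallest p. Remaining genes are given so that each is accounted for, and HSPA5 and CRELD2 were added after their values were seen. Alternatives were quantile normalization, centring on medians, adding 32 before log2, filters at percentiles 35 and 65 or none, averaging probe sets, dropping those ending in _x_at, limma untrended or robust, an adjusted threshold of 0.10, and omitting each array.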

Additional observations from a re-analysis of the deposited data

How the results depend on the processing

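With all 4 arrays, no setting brought any of the 41 genes past the adjusted limma threshold, including a threshold of 0.10, and the smallest adjusted p lay between 0.294 and 0.646. Leaving out 1 array gave between 0 and 953 genes past it over all genes and between 0 and 5 of the 41. Without shSOX11.1 there were 953 genes (7.98%), with KARS1, PHGDH, SHMT2, TRIB3 and VARS1, and without shSOX11.3 211 genes (1.77%), with DDIT4 and TRIB3. In such a fit the lone array is assumed to vary like the close shControl pair, so it describes single arrays and does not test the hairpins. Under an unadjusted p of 0.05, genes lower numbered 1 to 13 and genes higher 0 to 5 with 1 array left out. With all arrays, TRIB3 and PYCR1 stayed among those lower at every setting, DDIT3 did not with median centring or in limma without the trend, and SLC7A1 joined with a pseudocount of 32, filters at percentiles 35 and 65, in robust limma and without probe sets ending in _x_at. Genes higher numbered 1 after quantile normalization (SLC38A2), 1 after median centring (LARS1), 2 with probe sets averaged (EPRS1 and SLC38A2) and 1 without probe sets ending in _x_at (SLC38A2), in place of 0. Genes whose groups do not overlap numbered 11 lower and 8 higher after median centring and 5 higher after quantile normalization, in place of 18 and 3, and 12 lower and 4 higher with probe sets averaged. With 1 array left out they were 22 to 28 lower and 5 to 10 higher, and genes 1.5-fold apart throughout were 0 to 4 lower and 0 to 1 higher. Medians that moved by more than the spread between arrays were those of the regulators, from -0.14 to -0.057 with median centring and -0.19 with probe sets averaged, and of the enzymes, from -0.20 to -0.15 with quantile normalization, -0.11 with median centring and -0.034 with probe sets averaged. The median of all genes moved too, from -0.063 to 0.020 with median centring, -0.050 with quantile normalization and -0.042 with probe sets averaged. With 1 array left out the medians ran from -0.23 to -0.14 for the regulators, -0.26 to -0.12 for the enzymes, -0.39 to -0.14 for the transporters and -0.089 to 0.036 for the synthetases. Of 328 values of single genes at other settings with all arrays, 7 changed sign: ATF4 to 0.026 with quantile normalization, ATF5 to 0.012 and TARS1 to 0.0050 with median centring, and, with probe sets averaged, CEBPG to -0.037, PSAT1 to 0.16, SLC7A11 to -0.27 and SLC38A1 to 0.14. The cause was not tested. With 1 array left out 20 of 164 changed sign, and the log2 changes of the genes concerned, with 2 from the other lists, ran from -0.23 to 0.059 for ATF4, -0.15 to 0.0078 for ATF5, -0.34 to 0.83 for DDIT4, -0.042 to 0.12 for ASNS, -0.99 to 0.024 for PHGDH, -0.064 to 0.13 for ALDH18A1, -0.055 to 0.12 for AARS1, -0.14 to 0.30 for EPRS1, -0.025 to 0.036 for GARS1, -0.021 to 0.25 for IARS1, -0.35 to 0.045 for KARS1, -0.021 to 0.10 for NARS1, -0.028 to 0.44 for RARS1, -0.089 to 0.14 for SARS1, -0.21 to 0.058 for TARS1, -0.44 to 0.025 for EIF2S2 and -0.0074 to 0.21 for FARSB. No paired analysis was possible because the groups share only 1 construct number, which names a hairpin and not a pair. Precision is limited throughout by the number of arrays.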
